A study of Mus musculus with 4 samples.

Results

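Genes that drive DNA replication and cell division were read across 4 myeloid cell populations of the mouse large intestine. The members are 38 named genes, from the helicase that opens DNA to the motors that pull chromosomes apart. Every probe set whose only gene symbol is a member was taken, which gave 68 of 20380 single-gene probe sets and 36 of 12393 genes. Ccnb1 and Cdca8 have no such probe set and were not analysed here. A further probe set names Tyms together with its pseudogene Tyms-ps and was not used.

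All cells came from the lamina propria of C57BL/6J mice, with no treatment named, and were sorted by the surface proteins CD11c, CD11b and CX3CR1. DCs here are the CD11chigh CD11b- dendritic cells, and CX3CR1high macrophages are the CD11c+ CD11b+ CX3CR1high population. CX3CR1- cells are CD11c+ and CD11b+ but lack CX3CR1, and CD11b+ cells are CD11b+ but CD11c-. With 1 Affymetrix 3' array per population there is no replicate, so no test and no error over mice can be given, and the labels do not say how many mice went into a sort. Signals are linear intensities on the authors' scale, and 1 probe set stands for each gene, the brightest one that is not of the cross-matching _x_at type where there was a choice. The floor is a signal of 103, the pooled median. A ratio with 1 signal under the floor is a lower bound ("at least"), and 2-fold or more is counted as higher or lower. The only spread at hand comes from genes with several probe sets, as the SD of their log2 ratios within a pair of arrays. Over all such genes it was 0.39 for the DCs over the CX3CR1high macrophages, 0.52 over the CX3CR1- cells and 0.46 over the CD11b+ cells.

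A dividing cell first loads the MCM helicase onto replication origins, then copies its DNA with help from the sliding clamp PCNA and a supply of deoxynucleotides. Cyclin A and cyclin B then switch on the kinase CDK1, chromosomes condense, and a checkpoint holds back the anaphase-promoting complex until every chromosome is attached to the spindle. Most of these genes are transcribed in waves, under E2F factors for the replication genes and under the DREAM and MuvB complexes for the mitotic genes. In tissue, DCs renew from blood-borne precursors that can still divide, and gut macrophages are largely replaced by monocytes.

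Most of the genes had their highest signal in the DCs. Of 36 members, 33 had a ratio of the DCs to each other population. Of these, 21 were at least 2-fold higher in the DCs than in the CX3CR1high macrophages and 0 were lower. Of all genes with a ratio, 10.2% were higher and 17.4% lower. Against the CD11b+ cells these counts were 21 and 0 (10.4% and 17.0% of all genes). Against the CX3CR1- cells they were 12 and 0 (8.70% and 13.7% of all genes). The 21 were the same genes against the CX3CR1high macrophages and the CD11b+ cells. The 3 comparisons share the DC array, so they are not independent of each other. With the arrays set to equal medians, which moved the median of all genes by more than 0.1 on the log2 scale, 18.3% of all genes were higher in the DCs than in the CX3CR1high macrophages and 13.3% lower, against 21 and 0 of the members. Against the CX3CR1- cells the shares were 13.9% and 10.6%, and against the CD11b+ cells 18.1% and 12.9%. A higher share of dividing cells and more of these transcripts per dividing cell cannot be told apart in such sorted bulk RNA.

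The floor bears on these counts. In all 4 populations 13 members reached it, 6 reached it in the DCs alone, 1 (Prc1) only outside the DCs, and 3 (Kif11, Kif20a and Tyms) nowhere. Of the 21 higher members, 14 were measured on both sides against the CX3CR1high macrophages and 8 against the CD11b+ cells, and the others are bounds. With no floor, every member has a ratio, and 27 of 36 were at least 2-fold higher in the DCs than in the CX3CR1high macrophages (15.0% of all genes), 16 than in the CX3CR1- cells (13.4%) and 25 than in the CD11b+ cells (15.2%). The median log2 ratio was then 1.59 over the CX3CR1high macrophages, 0.91 over the CX3CR1- cells and 1.66 over the CD11b+ cells, beside -0.06, -0.10 and -0.13 for all genes. The deposited signal was higher in the DCs than in the CX3CR1high macrophages in 34 of 36 members. It was higher than in the CD11b+ cells in 32 and than in the CX3CR1- cells in 30. The same share over all genes was not taken, and only their medians above stand beside these counts. The counts include Kif11, Kif20a and Tyms, whose signals under the floor on every array carry little direction.

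**Figure D1:**
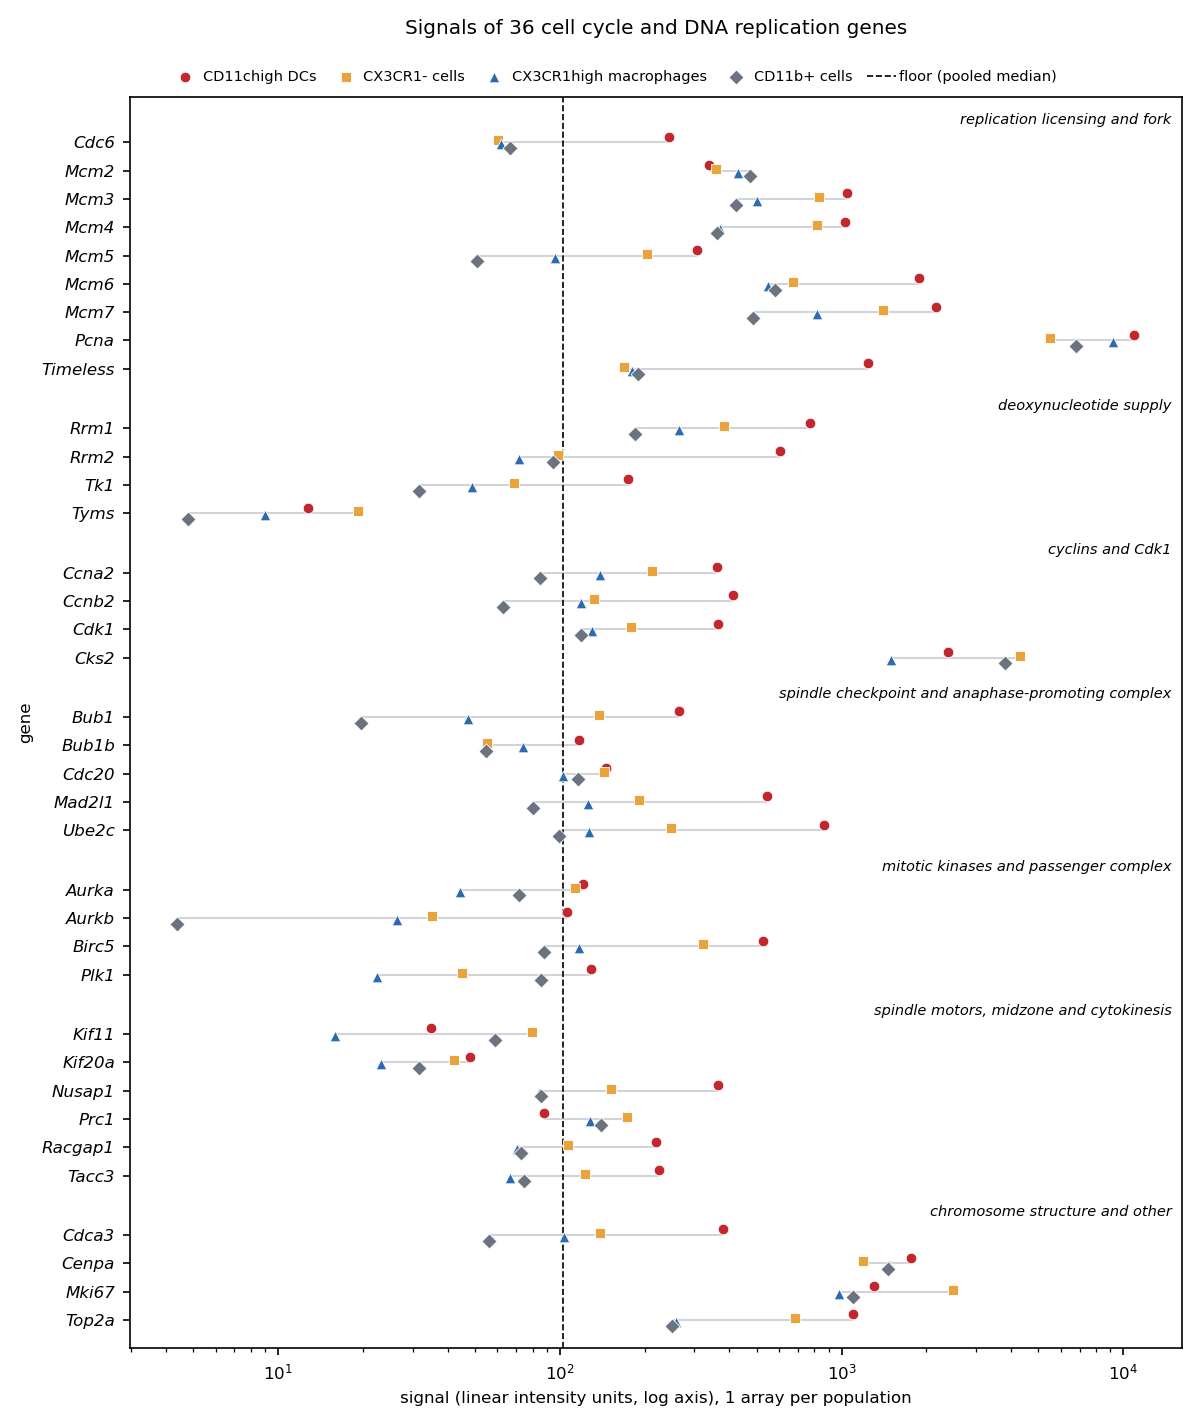
Signal of each of 36 genes (rows, grouped by role) in the 4 populations, in linear intensity units on a log axis, with 1 array per point and the floor of 103 as a dashed line. The DC point lies furthest right in 29 of the 33 genes that reach the floor; Mki67, Cks2, Prc1 and Mcm2 are the 4 that have another population on top, and signals are to be read within a gene and not between genes.

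In the order of the populations, 29 of the 33 members that reached the floor had their highest signal in the DCs (32.4% of all genes that did so), 3 in CX3CR1- cells (18.3%), 1 in CD11b+ cells (23.4%) and 0 in CX3CR1high macrophages (25.9%). The 6 members that reached the floor in the DCs alone could only be highest there, and the same holds for such genes among all genes. In 23 of the 33 the DCs came first and the CX3CR1- cells second, an order held by 14.0% of all genes. Members at least 2-fold above all 3 other populations numbered 12 in DCs (4.13% of all genes). They numbered 0 in CX3CR1- cells (0.561%), CX3CR1high macrophages (2.93%) and CD11b+ cells (2.17%) alike. Those 12 were Timeless, Rrm2, Ube2c, Ccnb2, Mad2l1, Mcm6, Cdca3, Nusap1, Cdc6, Racgap1, Cdk1 and Rrm1. Among them Rrm2 and Cdc6 reached the floor in the DCs alone, so all their ratios are bounds.

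Since most members were high together, their promoters were searched for short motifs known from cell cycle genes. The motifs, read on both strands, were CHR (TTTGAA), the CCAAT box (CCAAT) and E2F (TTTCCCGC, TTTGGCGC, TTTCGCGC or TTTGCCGC). Promoters ran from 250 bases before to 50 after the start site, from RefSeq on GRCm38.p6, and the table held 36 of them for 34 of the 38 members. Ccna2, Mcm4, Aurkb and Kif20a were without an entry. CCAAT was found in 28 of the 36 promoters, or 77.8%, beside 37.1% of 12566 promoters of genes on the array. CHR was found in 17, or 47.2%, beside 12.9%, and all 17 also held CCAAT. E2F was found in 6, or 16.7%, beside 3.38%. By role, 5 of the 6 promoters with E2F were among the 9 of the replication genes, of which 1 held CHR. The chromosome genes Top2a, Cenpa, Mki67 and Cdca3 all held CHR and CCAAT. A match describes the letters only, and other matches to these factors were not searched.

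Of the members with CHR or E2F matches upstream of the start site, those with the brightest DC signal are shown. The 250 bases before the start site are printed, on the gene's strand, with every match to the motifs in capitals and the rest in lower case. Mki67 (minus strand, chr7:135716380-135716629) and Top2a (minus strand, chr11:99024190-99024439) are shown for CHR. Mcm7 (minus strand, chr5:138171884-138172133) and Mcm6 (minus strand, chr1:128359706-128359955) are shown for E2F, and Mcm7 has a further start site whose promoter held no E2F match.
Mki67: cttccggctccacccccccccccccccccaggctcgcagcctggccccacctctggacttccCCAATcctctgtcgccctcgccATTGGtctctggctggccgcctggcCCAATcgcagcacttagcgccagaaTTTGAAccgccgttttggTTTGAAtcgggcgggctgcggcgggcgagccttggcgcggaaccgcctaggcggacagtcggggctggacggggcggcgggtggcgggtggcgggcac
Top2a: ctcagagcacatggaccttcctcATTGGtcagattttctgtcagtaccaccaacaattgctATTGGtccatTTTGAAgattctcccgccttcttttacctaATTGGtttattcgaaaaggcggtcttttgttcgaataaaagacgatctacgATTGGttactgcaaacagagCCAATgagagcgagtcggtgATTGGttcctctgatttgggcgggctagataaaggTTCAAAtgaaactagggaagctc
Mcm7: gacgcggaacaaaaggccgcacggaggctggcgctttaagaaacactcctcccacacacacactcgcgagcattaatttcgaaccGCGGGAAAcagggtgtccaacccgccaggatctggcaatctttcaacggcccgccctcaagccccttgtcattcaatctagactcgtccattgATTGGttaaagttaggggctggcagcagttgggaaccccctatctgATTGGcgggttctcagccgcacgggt
Mcm6: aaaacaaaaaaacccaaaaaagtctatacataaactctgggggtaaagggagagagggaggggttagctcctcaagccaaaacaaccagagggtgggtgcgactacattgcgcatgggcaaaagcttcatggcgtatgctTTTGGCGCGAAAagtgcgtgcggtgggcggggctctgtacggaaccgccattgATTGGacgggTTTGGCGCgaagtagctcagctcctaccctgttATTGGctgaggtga
In Mki67 a pair of CHR matches starts 116 and 98 bases before the start site, downstream of 3 CCAAT boxes. Top2a has 6 CCAAT boxes, and its CHR matches start 179 and 23 bases upstream. In the printed stretch Mcm7 has 1 E2F match, 165 bases upstream, with another after the start site, and Mcm6 has 3, of which those starting 110 and 106 bases upstream overlap.

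The replication genes were higher in the DCs with 2 exceptions. Of 9 licensing and fork genes, 7 were at least 2-fold higher in the DCs than in the CX3CR1high macrophages and than in the CD11b+ cells, and 3 than in the CX3CR1- cells. Mcm6, a subunit of the helicase, had signals of 1890.3 in DCs, 674 in CX3CR1- cells, 549.8 in CX3CR1high macrophages and 579 in CD11b+ cells. On this probe set the DCs stood alone on top, 2.80-fold to 3.44-fold above populations that lay close together. Its _x_at probe set gave 721, 339, 185 and 187 in the same order, with the CX3CR1- cells between the DCs and the rest. Mcm7, another subunit, was graded on the probe set used, at 2161 in DCs, 1406 in CX3CR1- cells, 816 in CX3CR1high macrophages and 485 in CD11b+ cells. Its other probe sets put the DCs 2.01-fold to 2.24-fold above the CX3CR1- cells. Mcm4 stood at 1031, 818, 369 and 361 in the same order, so that the DCs and the CX3CR1- cells were within 1.26-fold of each other and both more than 2-fold above the rest. Mcm3 (1042, 833, 502 and 422) and Mcm5 (306, 204, 96.3 and 50.7) followed the same order on the probe sets used. Other Mcm3 probe sets gave 404 in DCs beside 406 in CX3CR1- cells, 461 beside 542, and 143 beside 31.8. A further Mcm3 probe set was under the floor throughout.

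Timeless had the largest ratios among the licensing and fork genes, on the only one of its probe sets that reached the floor. It encodes a protein that holds the fork's helicase and polymerase together. Its signal was 1242 in DCs, 169 in CX3CR1- cells, 181 in CX3CR1high macrophages and 189.9 in CD11b+ cells, a ratio of 6.54-fold to 7.34-fold with no order among the other 3 beyond 1.12-fold. Cdc6, which loads the helicase onto origins, reached the floor in the DCs alone, with a signal of 244 beside 60.4, 61.9 and 66.4, at least 2.37-fold. The exceptions were Pcna and Mcm2. Pcna, the sliding clamp, also serves DNA repair, and its signals of 10933 in DCs, 5514 in CX3CR1- cells, 9199 in CX3CR1high macrophages and 6820.1 in CD11b+ cells were within 2-fold of each other. Mcm2 was read differently by its probe sets: the brighter one gave 337 in DCs and 474 in CD11b+ cells, and the other gave 321 in DCs, 199 in CX3CR1- cells, 167 in CX3CR1high macrophages and 112 in CD11b+ cells.

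Of 4 genes of deoxynucleotide supply, 2 were at least 2-fold higher in the DCs against each other population. Rrm1 and Rrm2 encode the subunits of ribonucleotide reductase, which makes deoxynucleotides, and Rrm2 is the subunit that rises in S phase. Rrm2 had a signal of 607 in DCs and was under the floor elsewhere (98.6, 71.8 and 94.6), at least 5.90-fold. Its other probe sets gave 520.3 and 1700.0 in DCs, the latter beside 596 in CX3CR1- cells, 235 in CX3CR1high macrophages and 269 in CD11b+ cells. Rrm1 fell off stepwise, at 771 in DCs, 382 in CX3CR1- cells, 265 in CX3CR1high macrophages and 185 in CD11b+ cells. Tk1, a thymidine kinase of the salvage route, reached the floor in the DCs alone (174 beside 68.5, 48.8 and 31.6), and its bound of at least 1.70-fold is too low to be counted. Tyms, thymidylate synthase, was under the floor in all 4 arrays on all 3 of its own probe sets. The probe set shared by Tyms and Tyms-ps read otherwise, at 449.7 in DCs, 144 in CX3CR1- cells, 124 in CX3CR1high macrophages and 79.3 in CD11b+ cells, and cannot be assigned to either gene.

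Among the cyclins and CDK1, Ccnb2, Ccna2 and Cdk1 were higher in the DCs and Cks2 was not. Ccnb2, a mitotic cyclin, had signals of 412 in DCs, 132 in CX3CR1- cells, 119 in CX3CR1high macrophages and 62.7 in CD11b+ cells. Cdk1, the kinase it activates, stood at 364, 178, 131 and 118, which put the DCs 2.04-fold above the CX3CR1- cells and about 3-fold above the other populations. Ccna2, the cyclin of S phase and early mitosis, stood at 359.9, 212, 139 and 84.8. Cks2, a small adaptor of CDK1, was read at 2380.2 in DCs, 4309 in CX3CR1- cells, 1499 in CX3CR1high macrophages and 3802 in CD11b+ cells. Its DC signal lay between those of the other populations.

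The checkpoint and anaphase genes held some of the largest ratios. Ube2c, the ubiquitin-conjugating enzyme of the anaphase-promoting complex, had signals of 869.7 in DCs, 248 in CX3CR1- cells, 127 in CX3CR1high macrophages and 99.1 in CD11b+ cells. That is 3.51-fold, 6.87-fold and at least 8.45-fold, with the CX3CR1- cells between the DCs and the rest. Mad2l1, which blocks the complex while chromosomes are unattached, stood at 546, 191, 126 and 80.5. Bub1, a checkpoint kinase, reached the floor in DCs (265) and CX3CR1- cells (138) and not in CX3CR1high macrophages (47.0) or CD11b+ cells (19.7). Bub1b, a further checkpoint kinase, reached the floor in the DCs alone (117), so its ratio of at least 1.14-fold was not counted. Cdc20, the activator that the checkpoint restrains, lay between 102 and 146 in all 4.

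The kinases were near the floor. Aurka (121 in DCs), Aurkb (106) and Plk1 (129), which drive spindle assembly and chromosome separation, had bounds no higher than 1.26-fold, and so the size of a difference could not be read at these signals. Aurka was measured on both sides against the CX3CR1- cells alone, at 1.07-fold. Birc5 (survivin), the partner of Aurkb in the chromosomal passenger complex, was above it in 3 populations. It had signals of 524 in DCs, 322 in CX3CR1- cells, 117 in CX3CR1high macrophages and 88.0 in CD11b+ cells. The DCs and the CX3CR1- cells were within 1.63-fold of each other, and the DCs were 4.48-fold above the CX3CR1high macrophages.

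Of 6 spindle and cytokinesis genes, Nusap1, Racgap1 and Tacc3 were higher in the DCs. Nusap1, which bundles microtubules near chromosomes, had signals of 365 in DCs, 153 in CX3CR1- cells, 84.2 in CX3CR1high macrophages and 85.9 in CD11b+ cells. Racgap1, needed for the cleavage furrow, stood at 219.6 in DCs and 107 in CX3CR1- cells, and Tacc3, a spindle protein, at 226 and 122, both under the floor in the other populations. Prc1, which crosslinks the spindle midzone, had its lowest signal in the DCs, at 88.0 beside 174 in CX3CR1- cells, 128 in CX3CR1high macrophages and 140.5 in CD11b+ cells. The motors Kif11 and Kif20a had no ratio, although a different Kif11 probe set reached 108 in DCs.

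The chromosome genes were mixed. Top2a, the topoisomerase that untangles DNA before mitosis, had signals of 1098 in DCs, 683 in CX3CR1- cells, 258 in CX3CR1high macrophages and 251 in CD11b+ cells. The CX3CR1high macrophages and the CD11b+ cells were level, and the DCs were more than 4-fold above them. Cdca3, a trigger of mitotic entry, stood at 378, 139, 103 and 55.9. Mki67, the gene of the Ki-67 proliferation marker, was highest in the CX3CR1- cells (2492) and lay at 1299 in DCs, 978 in CX3CR1high macrophages and 1098 in CD11b+ cells. Its DC signal was within 1.33-fold of the lowest population, unlike that of Top2a, and it has 1 probe set only. Cenpa, the histone of centromeres, was within 1.48-fold in all 4 (1195 to 1765).

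Probe sets of the same gene were compared where several had a ratio. A probe set that reached the floor in the DCs alone, as for Aurkb, can only be higher in the DCs. Part of the agreement in sign is thus set by the floor. Timeless, Top2a, Nusap1, Cdca3, Tacc3, Bub1 and Prc1 each had a ratio on 1 probe set only. Their other probe sets were under the floor on every array. Against the CX3CR1high macrophages, 12 genes had more than 1 probe set with a ratio. In 5 of these (Ccna2, Mcm4, Mcm6, Mcm7 and Rrm2) every such probe set was at least 2-fold higher in the DCs, in 3 some were, and in 1 (Mcm2) the signs were opposite. Against the CX3CR1- cells every such set was 2-fold higher in 2 of 12 genes, Mcm6 and Rrm2. Signs were opposite there in 3, namely Mcm2, Mcm3 and Cdc20. Against the CD11b+ cells every such set was 2-fold higher in 5 of 12 genes, and some were in 4. Signs were opposite there in Mcm2 and Cdc20. Of 68 member probe sets, 51 had a ratio of the DCs to the CX3CR1high macrophages. Of these, 30 were at least 2-fold higher in the DCs and 0 were lower. Among all single-gene probe sets with a ratio the shares were 10.2% and 15.8%.

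**Figure D2:**
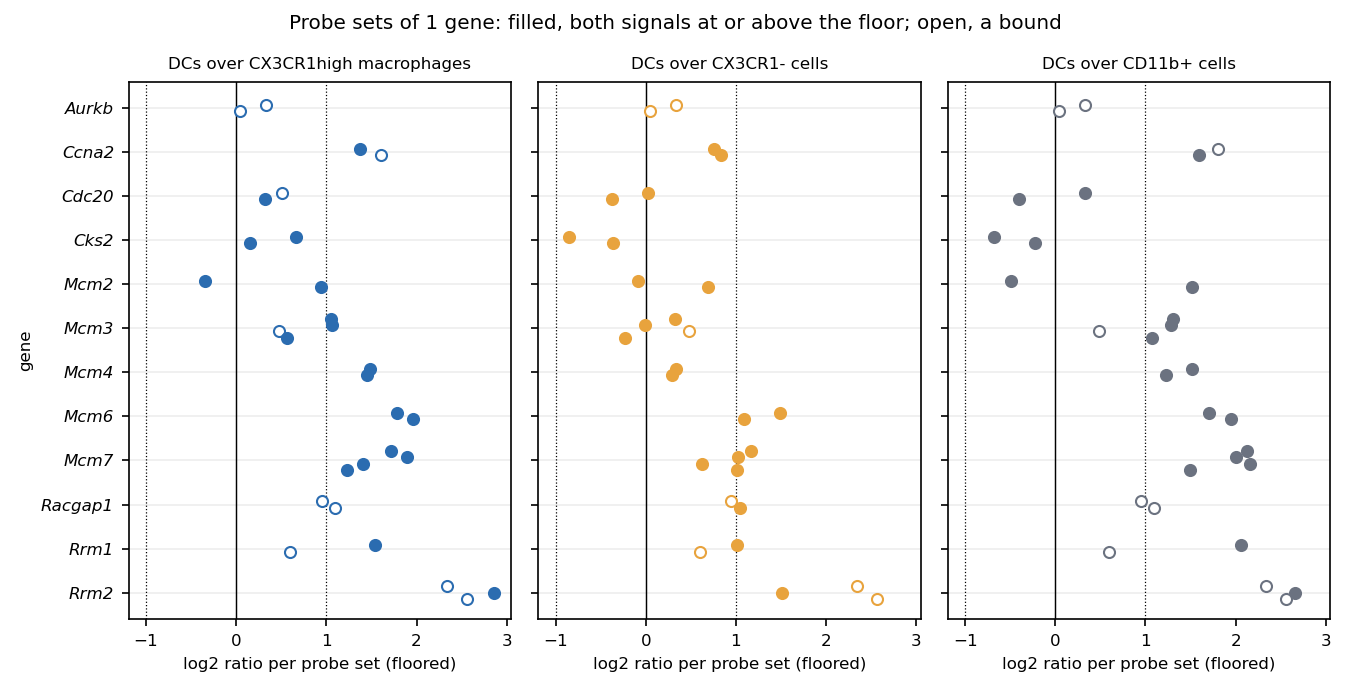
Log2 ratio of the DCs over each other population for each probe set of the 12 genes with more than 1 probe set that has a ratio; filled points have both signals at or above the floor, open points are bounds, and dotted lines mark 2-fold. The probe sets of Mcm6, Mcm7 and Rrm2 lie right of 0 in all 3 panels, and those of Mcm2 lie on both sides of 0.

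Among the other 3 populations, the CX3CR1- cells were above the rest. Against the CX3CR1high macrophages 5 of 36 members were at least 2-fold higher and 0 lower (6.54% and 8.56% of all genes with a ratio), with a median log2 ratio of 0.48 over the 27 members that had one. The 5 were Cks2 (2.88-fold), Birc5 (2.75-fold), Top2a (2.65-fold), Mki67 (2.55-fold) and Mcm4 (2.22-fold). Against the CD11b+ cells 8 of the 27 members with a ratio were higher and 0 lower (3.55% and 5.19% of all genes), led by Birc5 (at least 3.13-fold) and Mcm7 (2.90-fold). These counts moved with the floor. With no floor they were 11 of 36 (13.3% of all genes) against the CX3CR1high macrophages and 16 of 36 (11.3%) against the CD11b+ cells. With a floor at the pooled 75th percentile they were 2 of 9 members with a ratio (6.38%) and 2 of 10 (3.33%). Between the CX3CR1high macrophages and the CD11b+ cells, 0 members were at least 2-fold higher and 1, Cks2 (2.54-fold), was lower, beside 4.66% and 5.83% of all genes. Their median log2 ratio over the 21 members with one was 0.04, beside -0.02 for all genes.

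**Figure D3:**
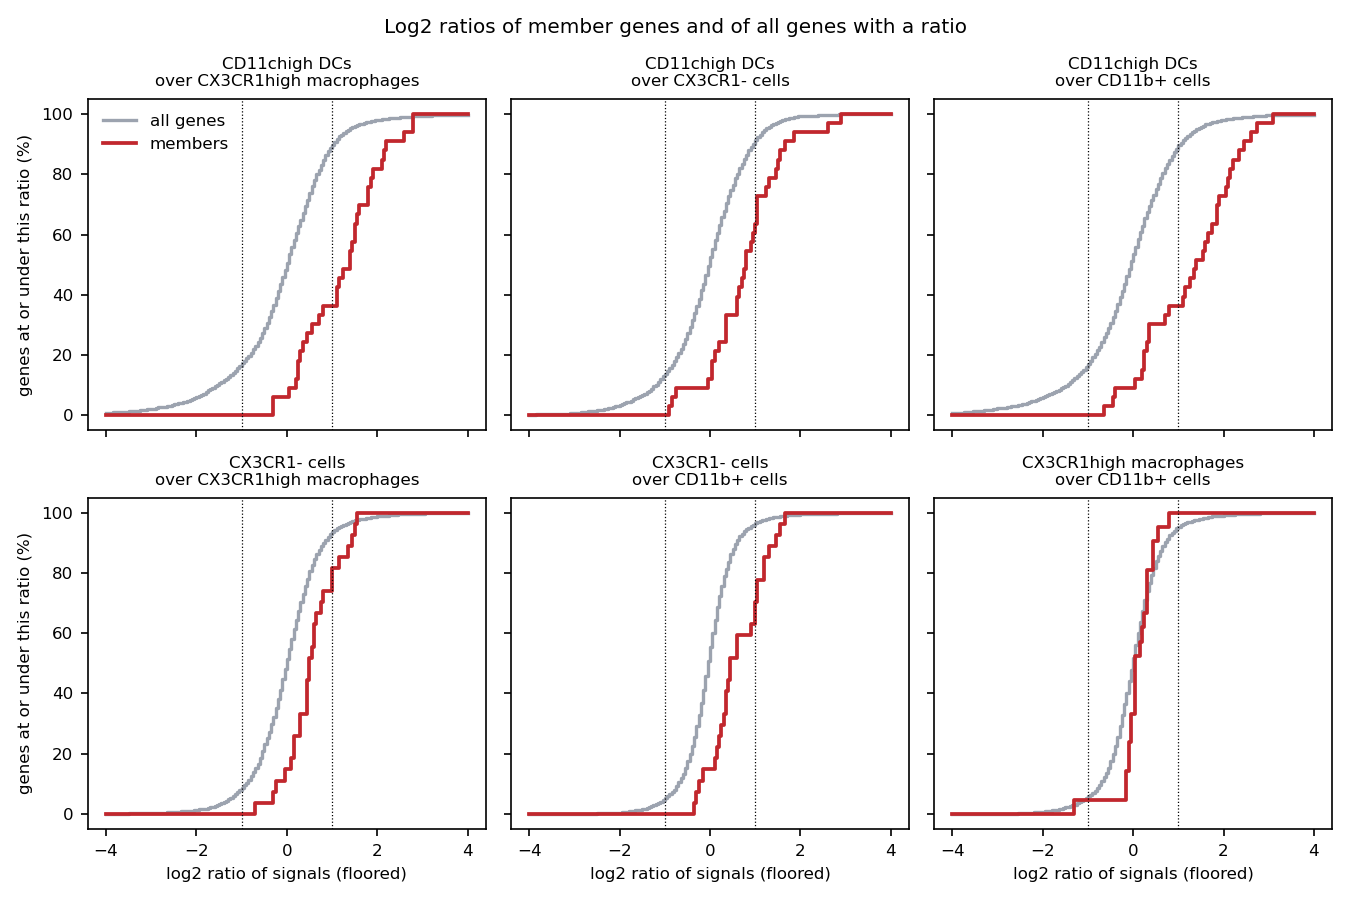
Cumulative share of genes (%) at or under each log2 ratio for the 6 pairs of populations, for the members with a ratio (red) and all genes with a ratio (grey); dotted lines mark 2-fold. The member curve lies to the right in the 3 panels of the DCs, where medians are 1.36, 0.76 and 1.36, and near the grey curve for the CX3CR1high macrophages over the CD11b+ cells, where the median is 0.04.

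Other genes of the cell cycle were read from a list of 126, of which 112 have a single-gene probe set. At least 2-fold higher in the DCs were 30 of these against the CX3CR1high macrophages (3 lower), where 10.2% of all genes with a ratio were higher and 17.4% lower. Against the CX3CR1- cells 19 were higher and 0 lower (8.70% and 13.7% of all genes), and against the CD11b+ cells 30 were higher and 4 lower (10.4% and 17.0%). Of the 112, those with a ratio numbered 85, 84 and 86 in these 3 comparisons. Their median log2 ratios were 0.80, 0.46 and 0.73, beside -0.02, -0.04 and -0.07 for all genes. Nucleotide supply and chromatin assembly had 7 of 10 genes higher and 1 lower against the CX3CR1high macrophages. Origin, fork and polymerase genes had 10 of 33 higher and 1 lower, and further mitosis genes had 6 of 40 higher and 0 lower. Of those 33 and 40 genes, 32 and 22 had a ratio.

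The largest differences of this list were those of Gmnn and Cks1b. Gmnn (geminin) blocks relicensing of origins by binding CDT1, and it had signals of 712 in DCs, 122 in CX3CR1- cells, 144 in CX3CR1high macrophages and 98.9 in CD11b+ cells. Cdt1 itself was lower in the DCs, at 1161, beside 1745, 3768 and 2606 in the same order, or 3.24-fold lower than in the CX3CR1high macrophages. Cks1b, the paralogue of Cks2, stood at 3896 in DCs, 1388 in CX3CR1- cells, 473 in CX3CR1high macrophages and 631 in CD11b+ cells, unlike Cks2. Tipin, the partner of Timeless at the fork, was at 1053, 364, 162 and 155. Prim1 (primase), Dut (dUTPase), Dctpp1 (a nucleotide pyrophosphatase), Hmgb2 (a chromatin protein) and Fen1 (flap endonuclease) completed the 8 largest, with DC signals of 569, 746, 1362, 2559 and 545. Lowest in the DCs, besides Cdt1, were Chaf1b, a histone chaperone subunit (106 beside 301 in CX3CR1high macrophages), the RB relative Rbl2 (106 beside 194) and Cdkn1a.

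Genes that start or brake the cycle were less uniform. Cdkn1a, the CDK inhibitor p21, had signals of 5747 in DCs, 9824 in CX3CR1- cells, 11942 in CX3CR1high macrophages and 13198 in CD11b+ cells, 2.08-fold and 2.30-fold lower in the DCs than in the last pair. Cdkn2d, another inhibitor, went the other way, at 1049.7 in DCs beside 369, 310.1 and 624. Cdkn1b (1076, 1191, 494 and 868) and Cdkn2c (434, 184, 355 and 329) were lowest in the CX3CR1high macrophages and the CX3CR1- cells respectively. Cdkn2b reached the floor in CX3CR1- cells (147) and CX3CR1high macrophages (124), and Cdkn1c and Cdkn2a reached it nowhere. Of the D cyclins, which open the G1 phase, Ccnd3 had 1179 in DCs, 757 in CX3CR1- cells, 202 in CX3CR1high macrophages and 656 in CD11b+ cells. Ccnd2 was highest in the CX3CR1- cells (5770 beside 3276 in DCs), and Ccnd1 was within 2.17-fold in all 4 (1196 to 2591). The E cyclins, which act at the entry to S phase, were near the floor: Ccne1 reached it in CD11b+ cells alone (125) and Ccne2 in DCs alone (136). Cdk4 (367 to 486) and Cdk2 (227 to 309) were within 2-fold. Of 13 E2F, RB and late transcription factor genes, 9 had a ratio to the CX3CR1high macrophages, with a median log2 ratio of -0.01. Higher in the DCs were 2 of these, E2f8 (at least 3.07-fold) and Rbl1 (2.55-fold), beside 10.2% of all genes. E2f1 was lowest in the DCs, at 130 beside 157 in CX3CR1- cells, 177 in CX3CR1high macrophages and 159 in CD11b+ cells. Foxm1 was under the floor in the DCs (66.5) and highest in CD11b+ cells (168), and Mybl2 was under it on every array.

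**Figure D4:**
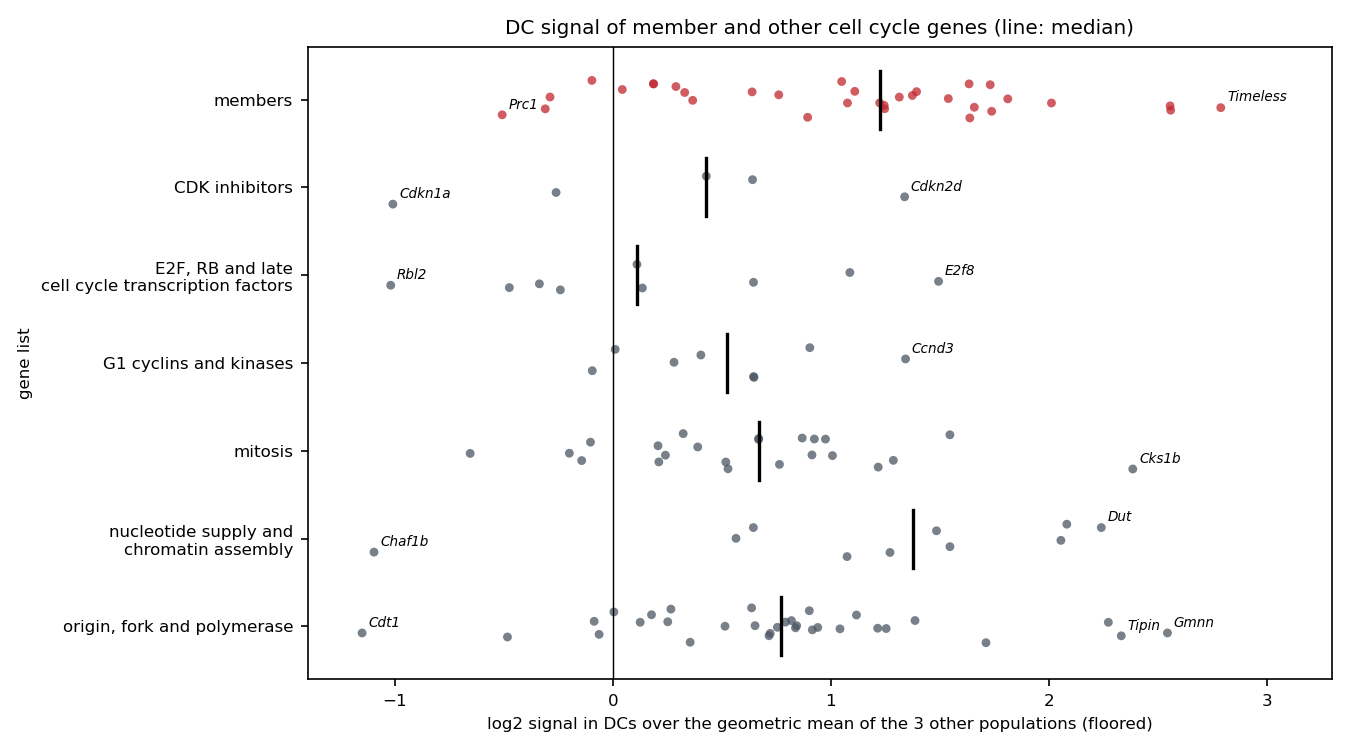
Log2 signal in the DCs over the geometric mean of the 3 other populations, for the 33 members that reach the floor (red) and for 6 lists of other cell cycle genes (grey), 1 point per gene, with the median as a line. Medians are 1.22 for the members and 1.38 for nucleotide supply and chromatin assembly, and 0.11 for the E2F, RB and late transcription factors.

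Markers and RNA quality of the same arrays were read beside these results. All 6 measured DC genes (Flt3, Zbtb46, Xcr1, Batf3, Irf8 and Ccr7) reached the floor in the DCs and were at least 2-fold higher there than in the CX3CR1high macrophages and the CD11b+ cells. The CX3CR1- cells, which came second for most cell cycle genes, reached it for 5 of the 6. Zbtb46 (861 beside 813 in DCs) and Ccr7 (7927 beside 8091) were near level between these populations, Flt3 had 837 beside 2579, and Xcr1 was under the floor outside the DCs. Itgam (CD11b) had a signal of 45.9 in DCs, under the floor. Some gate genes were less clear-cut: Itgax (CD11c) had 1864 in CD11b+ cells, which were sorted as CD11c-, and Cx3cr1 had 291 in CX3CR1- cells beside 1499 in CX3CR1high macrophages. Summed signals of 8 macrophage genes ran from 12953 in DCs to 145133 in CX3CR1high macrophages. No list of other cell types summed highest in the DCs. Of 11 measured T, NK and innate lymphoid genes, summed signals were 1690 in DCs and 2469 to 8093 elsewhere. Most of each sum was Il7r, at 1168 in DCs, 7311 in CX3CR1- cells, 2636 in CX3CR1high macrophages and 1737 in CD11b+ cells. Cd3d, Cd3e and Cd3g were under the floor on every array, and Cd8a, which some DCs also express, reached it in DCs alone (201). Of 7 B and plasma cell genes the summed signals were 10567 in DCs and 11621 to 36256 elsewhere, with Ms4a1 and Pax5 under the floor throughout. Most of the DC sum was Jchain, at 10117.5 in DCs and 10329 to 34144 elsewhere. Cd22 (146) and Sdc1 (111.5) also reached the floor in the DCs and were lowest there. Of 10 epithelial genes the summed signals were 3591 in DCs, 2492 in CD11b+ cells, 6265 in CX3CR1- cells and 14054 in CX3CR1high macrophages. The crypt stem cell gene Lgr5 was under the floor throughout, but 6 of the 10 reached it in the DCs. Among these, Epcam (908 beside 443) and Cdh1 (496 beside 143) were more than 2-fold higher in the DCs than in the CD11b+ cells. Krt8 stood at 1192 in DCs, 932 in CD11b+ cells and 6182 in CX3CR1high macrophages. Fibroblast and endothelial genes summed to 5297 in DCs and 16935 to 61824 elsewhere, and monocyte and granulocyte genes to 855 and 1206 to 10234. The mast cell and progenitor list, 7 genes, summed to 2156 in DCs and 609 to 2873 elsewhere. Only Kit and Cd34, both expressed by progenitors, reached the floor, and they ran in opposite directions. Kit had signals of 1897 in DCs and 1917 in CX3CR1- cells beside 94.6 in CX3CR1high macrophages and 159 in CD11b+ cells. Cd34 was lowest in the DCs, at 222, beside 864 in CX3CR1- cells, 490.0 in CX3CR1high macrophages and 1403 in CD11b+ cells. The mast cell genes Cpa3, Mcpt1, Mcpt2, Tpsb2 and Ms4a2 were under the floor on all 4 arrays. The Gapdh control probe sets had a 3' to 5' signal ratio, a measure of RNA integrity, of 0.791 in DCs, 3.40 in CX3CR1- cells, 1.08 in CX3CR1high macrophages and 2.17 in CD11b+ cells. The same ratio for Actb was 1.11, 2.76, 1.68 and 3.18 in that order, so both control genes were lowest in the DCs and differed on which array was highest. Of 8 reference genes outside the cell cycle lists, 5 were highest in the DCs, beside 32.4% of all genes that reached the floor. The median log2 ratios of the 8 were 0.35 over the CX3CR1high macrophages, 0.40 over the CX3CR1- cells and 0.23 over the CD11b+ cells. Polr2a went the other way, at 759 in DCs, 2435 in CX3CR1- cells, 1627 in CX3CR1high macrophages and 2183 in CD11b+ cells. The part of other cells, of RNA integrity and of any such shift between arrays in the DC ratios was not tested.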

How the data were processed

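RNA of 4 sorted populations was labelled with biotin for Affymetrix 3' arrays, per the labels' protocols, with 1 array per population and groups taken from the labels. The authors deposited linear signal intensities per probe set. Per the submitters' processing notes the tool was MAS5 (version not given in the sources used here). On each array the mean with 2% trimmed from each end was 500.3, so a common scale had been set. No further normalization was applied.

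Probe sets naming exactly 1 gene in the platform's table were kept (20380 of 22690). Of the rest, 64 were controls, 691 named several genes and 1555 none. Signals under the pooled median were set to it before ratios were taken, and ratios with both signals under it were left out. Members were described by counts and medians beside all genes, in Python 3.11.15 with pandas 2.3.3 and numpy 2.4.6. The calling step was tested on simulated data. Tried as alternatives were floors at the pooled 25th and 75th percentiles, no floor, a pseudocount, quantile normalization, equal array medians, averaging all probe sets of a gene, and dropping the _s_at, _x_at and _a_at types.

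Named are all members, the 8 highest and 4 lowest other cell cycle genes by the DC signal over the geometric mean of the others, the CDK inhibitors and the G1 cyclins. Further genes were named after their values were seen: the other kinases and factors of the cycle, and the markers. The members and lists were chosen with earlier results of these data known. Genome positions are those of the RefSeq promoters alone, since a 3' array measures transcripts.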

Additional observations from a re-analysis of the deposited data

How the results depend on the processing

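No paired analysis was possible because each population had 1 array. Under all 8 alternatives the median log2 ratio of the members stayed above 0 in the DCs over each other population, and in the CX3CR1- cells over the CX3CR1high macrophages and the CD11b+ cells. The floor moved the results most. With it at the pooled 75th percentile, a signal of 453, only 15 members kept a ratio to the CX3CR1high macrophages, the DC medians fell to 0.77 over the CX3CR1high macrophages and 0.72 over the CD11b+ cells, and 6, 2 and 6 members were at least 2-fold higher in the DCs than in the CX3CR1high macrophages, the CX3CR1- cells and the CD11b+ cells, beside 9.68%, 8.21% and 9.77% of all genes. The 2 of 15 against the CX3CR1- cells is near that share. Of the 16 members that then kept a ratio to the CD11b+ cells, 13 were highest in the DCs, beside 29 of 33 at the main floor. The median of the CX3CR1high macrophages over the CD11b+ cells turned from 0.04 to -0.024. With the floor at the 25th percentile or none, 1 member, Kif11, was at least 2-fold lower in the DCs than in the CX3CR1- cells, on 1 probe set (34.8 beside 80.0), and its other probe sets ran the opposite way (90.5 beside 30.02 and 108 beside 20.4). At least 2-fold higher in the CX3CR1- cells than in the CX3CR1high macrophages were 9 of 35 members under the 25th-percentile floor (7.63% of all genes). With a pseudocount the count was 8 of 36 (5.74%), and with all probe sets averaged 4 of 19 (5.76%). Over the CD11b+ cells these counts were 14 of 35 (5.43%), 12 of 36 (4.28%) and 4 of 19 (3.50%). With no floor the median of the CX3CR1- cells over the CD11b+ cells was 0.77. Equal array medians moved the median of all genes to 0.27 over the CX3CR1high macrophages, 0.16 over the CX3CR1- cells and 0.22 over the CD11b+ cells, and the members stood at 1.58, 0.98 and 1.62 there. No member called at 2-fold in a DC comparison changed sign under any alternative. Signals near the floor, as for the mitotic kinases, set no limit on how far the populations differ.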
